A study of Mus musculus with 8 samples.

Results

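The hedgehog receptors, effectors and targets described here are 9 genes chosen by name: *Gas1*, *Boc*, *Cdon*, *Ptch1*, *Smo*, *Hhip*, *Gli1*, *Gli2* and *Gli3*. They are 9 of 31053 genes in the count files, of which 15873 had at least 1 count. RNA was sequenced from fibro/adipogenic progenitors (FAPs), the mesenchymal cells of the muscle interstitium, sorted from hind limb muscles of 45-day-old *mdx* mice of the strain C57BL/10ScSn-Dmdmdx/J. These mice carry a mutation in dystrophin and model Duchenne muscular dystrophy. All cells were negative for CD45, CD31 and Integrin alpha-7 and positive for the surface protein SCA-1, and were split into SCA1-High-FAPs and SCA1-Low-FAPs. Each state was represented by 4 samples, taken from 4 mice in all and grown for 5 days in growth medium without any differentiation stimulus. Every sample in both groups therefore carries the *mdx* mutation, and no wild-type muscle and no hedgehog agonist or inhibitor is part of the comparison. The 8 libraries held between 1880561 and 3985656 counts over genes, read from the 3′ ends of transcripts, so that levels, given as counts scaled to the library total and its TMM factor (CPM), do not scale with transcript length.

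Hedgehog ligands are lipid-modified secreted proteins that bind PTCH1, helped by the co-receptors GAS1, BOC and CDON. Without ligand, PTCH1 holds the membrane protein SMO inactive, and GLI3 is cut to a repressor. With ligand, SMO enters the primary cilium and GLI2 is turned into an activator, which switches on *Gli1*, *Ptch1* and *Hhip*. HHIP binds ligand at the cell surface and, like PTCH1, limits the signal that induced it. In skeletal muscle, FAPs carry primary cilia, and hedgehog signalling through them is known to restrain their conversion into adipocytes.

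*Ly6a*, which encodes SCA-1, did not follow the sort label after culture. SCA1-High-FAPs had 711 CPM ± 184 (SD, n = 4) of this mRNA, less than the 1087 CPM ± 58.8 of SCA1-Low-FAPs (log2 fold change 0.61, adjusted *p* = 0.0341, edgeR quasi-likelihood test). The labels refer to the surface protein at sorting, and they are used here in that sense only. Among the samples, SCA1-Low-FAPs replicate 3 stood apart from its group. On the first principal component of the tested genes, which held 38.5% of the variance, it scored 6.54, against 31.6 to 46.7 for the other Low samples and -51.3 to -22.2 for the High samples. Of all alignments entered in the counting, 37.5 to 39.7% were marked as not unique in SCA1-High-FAPs and 40.8 to 43.3% in SCA1-Low-FAPs. This share did not overlap between the groups, and its part in the differences given here was not tested. The defining myogenic markers *Pax7*, *Myod1*, *Myf5* and *Myog* and the leucocyte markers *Adgre1*, *Itgam* and *Cd3e* had no count in any library. The other leucocyte markers listed, *Lyz2*, *Csf1r*, *Cd68* and *Ptprc*, had 389, 90, 33 and 1 counts in all. The other myogenic markers listed, *Itga7*, *Des* and *Cdh15*, had 44, 15 and 1.

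The 9 genes covered very different levels, and 1 of them took most of their counts. *Gas1* made up 85.1 to 93.1% of the summed counts of the 9 genes in SCA1-High-FAPs and 59.8 to 81.0% in SCA1-Low-FAPs. Without *Gas1* the other 8 genes summed to 121 CPM ± 42.6 in SCA1-High-FAPs, compared with 131 CPM ± 13.5 in SCA1-Low-FAPs (SD, n = 4 each). In SCA1-High-FAPs the order of mean levels was *Gas1*, *Smo*, *Gli3*, *Cdon*, *Boc*, *Ptch1*, *Hhip*, *Gli2* and *Gli1*. In SCA1-Low-FAPs the order was the same except that *Gli3* stood above *Smo*. The sample ranges of *Gas1* and the gene below it did not overlap in either group. Neither did those of *Gli2* and *Gli1*. The ranges of *Cdon* and *Boc* were separate in SCA1-High-FAPs only, and those of *Hhip* and *Gli2* in SCA1-Low-FAPs only. All other neighbours in the order overlapped in their ranges.

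**Figure D1:**
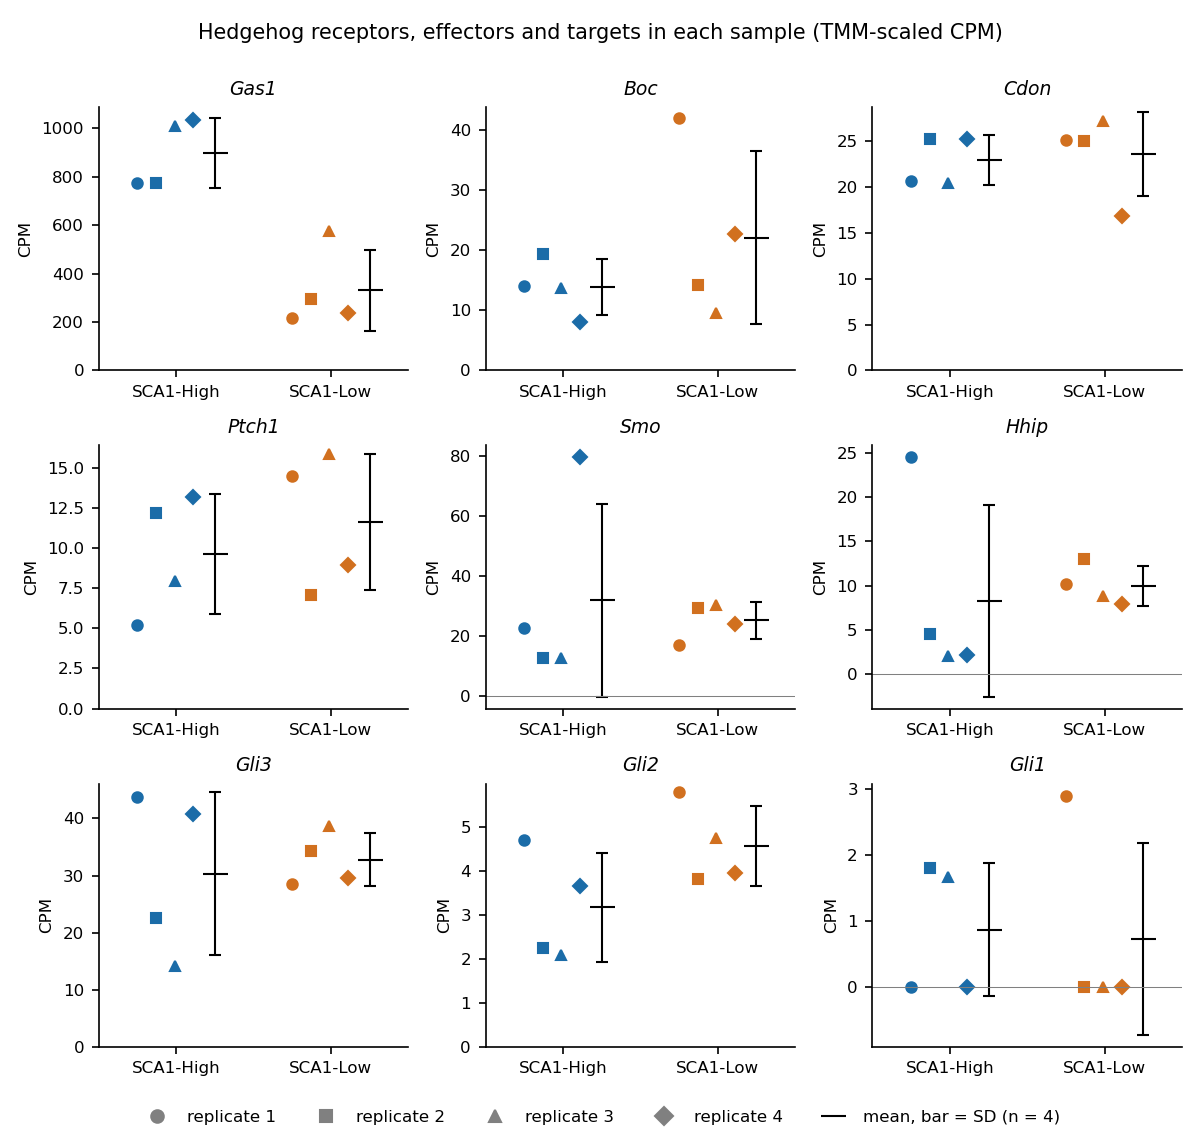
Level of each of the 9 genes in each sample, in TMM-scaled CPM on linear axes, with SCA1-High-FAPs in blue and SCA1-Low-FAPs in orange. Point shapes give the replicate number, and the black bar is the mean with its SD (n = 4). *Gas1* is the gene whose groups do not overlap, while single samples stand out for *Smo* (79.6 CPM) and *Hhip* (24.5 CPM) in SCA1-High-FAPs.

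*Gas1*, a membrane-anchored co-receptor that presents ligand to PTCH1, was 2.71-fold higher in SCA1-High-FAPs than in SCA1-Low-FAPs. In SCA1-High-FAPs replicates 1 to 4 it was at 774, 774, 1011 and 1036 CPM. In SCA1-Low-FAPs replicates 1 to 4 it was at 218, 295, 577 and 236 CPM. Every High sample was above every Low sample, and the highest Low value was that of replicate 3, the sample that stood apart on the first component. Counted as Low over High, here and throughout, the log2 fold change was -1.44 (SE 0.28, 95% confidence interval -2.06 to -0.82, adjusted *p* = 0.0108, edgeR quasi-likelihood test). The call rests on 450 to 2826 counts per library. Without SCA1-Low-FAPs replicate 3 the log2 fold change was -1.86 (adjusted *p* = 2.17e-05), and without SCA1-High-FAPs replicate 3 it was -1.38 and missed the threshold (adjusted *p* = 0.0511). In bulk RNA, fewer cells with *Gas1* and less *Gas1* mRNA per cell cannot be told apart.

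A gene was called when its adjusted *p* was under 0.05 and its log2 fold change beyond 0.5 in either direction. Of the 9 genes, 7 had enough counts to be tested, and 1 of these 7, *Gas1*, was called. Over all 10181 tested genes 7.68% were called, of which 444 (4.36%) were higher in SCA1-High-FAPs, while 338 (3.32%) were higher in the other state. The samples of the groups did not overlap in CPM for 1 of the 7 members, again *Gas1*, and for 14.1% of all tested genes. *Gas1* was the 17th most abundant of the 444 genes called higher in SCA1-High-FAPs, and 183rd of 444 by the size of its log2 fold change. Among all tested genes 2.02% had a higher mean level.

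In the GENCODE M21 annotation of the GRCm38 build *Gas1* lies on the minus strand at chr13:60174405-60177365. Its exon shares 589 bases with *Gm48488*, a gene on the other strand that had 4 counts over all 8 libraries. RefSeq places the start of *Gas1* farther upstream. The 250 bases before the RefSeq start are printed because *Gas1* is the called member, as chr13:60177536-60177785 of GRCm38.p6 on the minus strand, with a CCAAT letter run in capitals.

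Gas1: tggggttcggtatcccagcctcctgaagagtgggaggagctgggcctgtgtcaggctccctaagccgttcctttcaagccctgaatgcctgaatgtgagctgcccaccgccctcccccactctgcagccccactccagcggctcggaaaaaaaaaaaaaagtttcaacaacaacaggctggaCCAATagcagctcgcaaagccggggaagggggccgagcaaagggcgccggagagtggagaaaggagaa

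This window is 58.8% G and C, and the CCAAT run begins 68 bases before the start. CCAAT or its reverse complement ATTGG is common, being present in 37.4% of 32851 mouse promoter windows of 250 bases before and 50 bases after a RefSeq start. The letters bound by GLI proteins, GACCACCCA or their reverse complement TGGGTGGTC, were in 83 of these windows (0.253%) and in none of the 7 windows of the members. No window was at hand for *Gli1* and *Boc*. The inner letters of that site, ACCACCC or GGGTGGT, which every full match also holds, were in 4.61% of all windows and among the members in that of *Gli2* only. They begin 205 bases before the *Gli2* start and are shown in capitals. The 30 bases printed around them are chr1:119053806-119053835 on the minus strand.

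Gli2: atccccctccaGGGTGGTgtccccccaccc

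A letter match describes the sequence and not a bound site. The absence of a match says only that these letters are not in the window.

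The 3 tested genes whose pattern over the 8 samples was most like that of *Gas1* were *Col14a1*, *Ppp1r3c* and *Sned1*. Likeness was measured as the root mean square difference of centred log2 CPM, which was 0.16, 0.19 and 0.21 for these genes against a median of 0.96 over all tested genes. *Col14a1*, a fibril-associated collagen, averaged 403 CPM ± 93.4 in SCA1-High-FAPs, compared with 158 CPM ± 80.7 in SCA1-Low-FAPs (SD, n = 4 each). *Ppp1r3c*, a glycogen-targeting subunit of protein phosphatase 1, was at 19.5 CPM ± 3.42 and 6.41 CPM ± 2.98 in the same order. *Sned1*, an extracellular matrix protein, was at 2188 CPM ± 487 and 653 CPM ± 406. In all 3 genes, as in *Gas1*, SCA1-Low-FAPs replicate 3 was the highest of the Low samples. These genes were picked for their likeness, so their difference between groups is a description.

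Marker sums of other cell types moved with *Gas1* between the groups. The summed level of 8 adipocyte markers ran from 2960 to 11189 CPM in SCA1-High-FAPs. It ran from 507 to 1441 CPM in SCA1-Low-FAPs, where replicate 3 was the highest. Of the 6 adipocyte markers tested, 3 were called (*Adipoq*, *Retn* and *Lpl*), all higher in SCA1-High-FAPs, against 7.68% of all tested genes called. The other 3, *Cfd*, *Plin1* and *Fabp4*, were also higher there without overlap, with log2 fold changes of -5.46, -2.45 and -2.77. They missed the threshold (adjusted *p* of 0.0534, 0.0751 and 0.101, edgeR quasi-likelihood test). *Lep* had no count in any library, and *Cidec* averaged 7.82 CPM in the High samples and 0.359 CPM in the Low samples. The sum of 8 markers of dividing cells ran from 509 to 713 CPM in SCA1-High-FAPs. It ran from 928 to 1394 CPM in SCA1-Low-FAPs, where replicate 3 was the lowest, and 5 of the 8 were called higher in SCA1-Low-FAPs. Within SCA1-High-FAPs the order differed. Replicate 1 had the highest adipocyte sum and a *Gas1* level of 774 CPM, while replicate 4 had the lowest adipocyte sum and the highest *Gas1* level. The part of these markers in the *Gas1* difference was not tested.

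**Figure D2:**
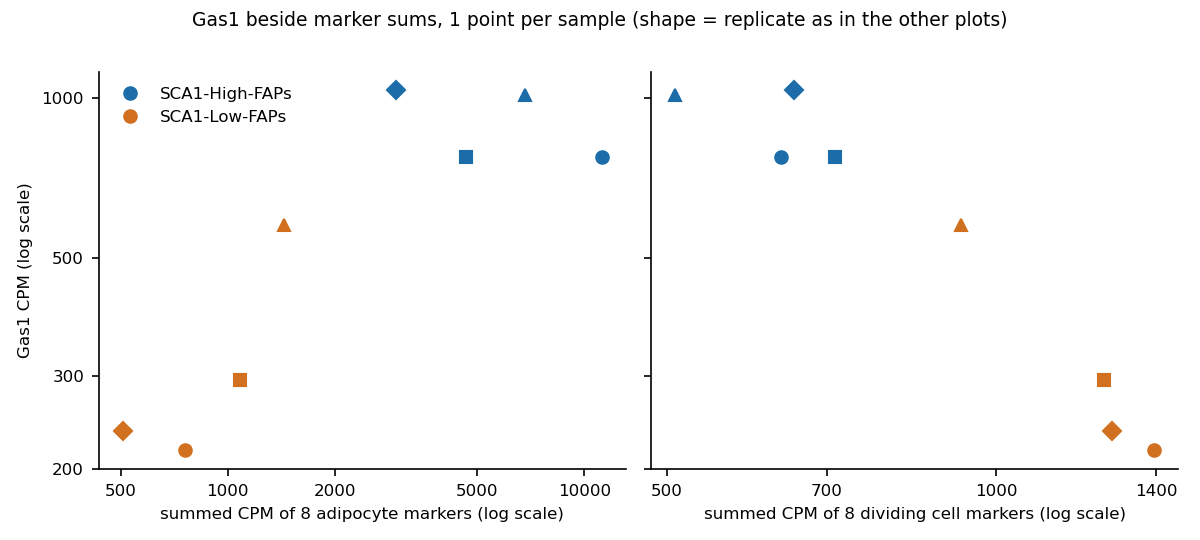
*Gas1* level (CPM, log axis) of each of the 8 samples against the summed CPM of 8 adipocyte markers (left) and of 8 markers of dividing cells (right), both on log axes, with SCA1-High-FAPs in blue and SCA1-Low-FAPs in orange. The Low sample at 577 CPM, replicate 3, lies nearest to the High samples on both axes.

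The markers of pericytes and smooth muscle also moved with the groups. Their 6 genes summed to 472 to 1471 CPM in the High samples and 1966 to 2991 CPM in the Low samples. *Acta2*, *Myh11* and *Cspg4* were called higher in SCA1-Low-FAPs, while *Notch3* was called in the other direction. The FAP markers summed to 13183 to 16040 CPM and 8435 to 14073 CPM in the same order. Of these 8 genes, *Dcn* and *Col3a1* were called higher in SCA1-High-FAPs, while *Ly6a* and *Thy1* were called the other way. The leucocyte sum was 25.3 to 48.0 CPM against 12.5 to 19.3 CPM, with *Lyz2* called higher in SCA1-High-FAPs and *Ptprc* at 1 count in all. The Schwann cell sum was 16.5 to 58.5 CPM against 7.62 to 11.6 CPM, also without overlap. Of its 6 genes *S100b* was tested and not called (adjusted *p* = 0.280, edgeR quasi-likelihood test), *Ngfr* averaged 14.8 CPM and 0.651 CPM, and the defining marker *Sox10* had 2 counts in all. The endothelial sum was at most 7.39 CPM and the myogenic sum at most 12.5 CPM in any sample. The sum of 5 tendon markers was 396 to 676 CPM in the High samples and 543 to 948 CPM in the Low samples, with no gene called. Among them *Scx*, under the count filter, had 0 counts in every High library and 17, 3, 7 and 3 counts in SCA1-Low-FAPs replicates 1 to 4. *Tnmd* went the other way, at 24.0 CPM in the High and 8.20 CPM in the Low samples, without overlap (adjusted *p* = 0.0530, edgeR quasi-likelihood test). The part of all these markers in the values of the 9 genes was not tested.

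*Boc* and *Cdon* encode related co-receptors of the immunoglobulin superfamily that, like GAS1, present ligand to PTCH1. *Boc* was at 14.1, 19.4, 13.8 and 8.07 CPM in SCA1-High-FAPs replicates 1 to 4. In SCA1-Low-FAPs it was at 42.1, 14.2, 9.52 and 22.7 CPM. The groups overlapped, and the highest value of the Low group was that of its replicate 1. The log2 fold change was 0.67 (95% confidence interval -0.22 to 1.56, adjusted *p* = 0.398, edgeR quasi-likelihood test). Without SCA1-Low-FAPs replicate 1 it was 0.18 (adjusted *p* = 0.882), so this library decides its size.

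*Cdon* was the most even of the 9 genes in SCA1-High-FAPs, where its coefficient of variation was 11.9%. It was at 20.7, 25.3, 20.5 and 25.3 CPM in SCA1-High-FAPs and at 25.1, 25.05, 27.3 and 16.9 CPM in SCA1-Low-FAPs. The ranges lay almost on top of each other. Its log2 fold change was 0.03 (95% confidence interval -0.53 to 0.60, adjusted *p* = 0.966, edgeR quasi-likelihood test), so the interval includes folds of up to 1.51 toward SCA1-Low-FAPs and 1.44 toward SCA1-High-FAPs.

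Set against each other within a sample, *Gas1* and *Cdon* gave ratios that were separate between the states, as a description with no test. There were 30.6 to 49.4 *Gas1* counts per *Cdon* count in SCA1-High-FAPs (mean 39.6 ± 7.84, SD, n = 4) and 8.65 to 21.1 in SCA1-Low-FAPs (mean 13.9 ± 5.31). *Gas1* counts per *Boc* count ranged from 39.8 to 128 in SCA1-High-FAPs and from 5.17 to 60.6 in SCA1-Low-FAPs, and here the ranges overlapped. *Boc* counts per *Cdon* count were 0.319 to 0.768 and 0.349 to 1.67. These ratios are used to compare the same transcripts across samples and are not given as ratios of molecules within a sample.

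*Ptch1*, which encodes the ligand receptor and is itself a target of the pathway, was detected at a low level in all 8 samples. It was at 5.18, 12.2, 7.93 and 13.2 CPM in SCA1-High-FAPs replicates 1 to 4. In SCA1-Low-FAPs it was at 14.5, 7.08, 15.9 and 8.98 CPM. The groups overlapped over most of their range. The log2 fold change was 0.27 (95% confidence interval -0.65 to 1.18, adjusted *p* = 0.795, edgeR quasi-likelihood test), on 11 to 50 counts per library. The interval includes folds of up to 2.26 toward SCA1-Low-FAPs.

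*Smo*, the transducer that PTCH1 inhibits, had a single High sample far above all others. It was at 22.6, 12.7, 12.5 and 79.6 CPM in SCA1-High-FAPs and at 16.9, 29.4, 30.1 and 24.0 CPM in SCA1-Low-FAPs. The value of SCA1-High-FAPs replicate 4 rests on 217 counts, and by its gap to the next highest sample (1.38 on the log2 scale) *Smo* ranked first of 10181 tested genes in that library. With all samples the log2 fold change was -0.35 (95% confidence interval -1.61 to 0.90, adjusted *p* = 0.794, edgeR quasi-likelihood test). Without replicate 4 the direction turned, to 0.66 (adjusted *p* = 0.305). *Ptch1* counts per *Smo* count ran from 0.166 to 0.964 in SCA1-High-FAPs and from 0.241 to 0.857 in SCA1-Low-FAPs.

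*Hhip*, the ligand-binding inhibitor and pathway target, also had a single High sample above all others, in another library. It was at 24.5, 4.52, 2.09 and 2.20 CPM in SCA1-High-FAPs and at 10.2, 13.1, 8.88 and 7.92 CPM in SCA1-Low-FAPs. SCA1-High-FAPs replicate 1, with 52 counts, was above all Low samples, and the other 3 High samples, with 5 to 10 counts, were below all of them. By its gap to the next highest sample (0.867 on the log2 scale) *Hhip* ranked 42nd of 10181 tested genes in replicate 1. The log2 fold change was 0.27 (95% confidence interval -1.13 to 1.67, adjusted *p* = 0.870, edgeR quasi-likelihood test). Without replicate 1 it was 1.76, still not past the threshold (adjusted *p* = 0.105). This library was also the one with the highest adipocyte sum of the 8, 11189 CPM, and the part of that in its *Hhip* level was not tested.

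**Figure D3:**
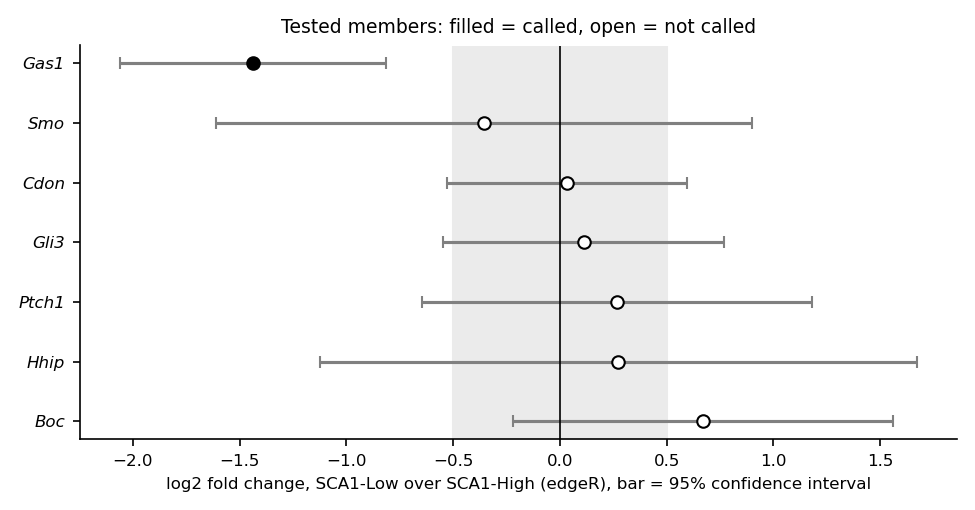
Log2 fold change (Low over High) for the 7 members that were tested, with 95% confidence intervals (edgeR, 4 against 4 samples). The grey band marks log2 fold changes within 0.5 of 0, the filled point is the called gene, *Gas1*, at -1.44, and the intervals of the other 6 include 0.

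The GLI genes encode the transcription factors at the end of the pathway. *Gli3*, mainly a repressor, was the GLI gene with the highest level. It was at 43.8, 22.6, 14.2 and 40.7 CPM in SCA1-High-FAPs and at 28.5, 34.3, 38.7 and 29.6 CPM in SCA1-Low-FAPs. All Low values lay inside the range of the High values. The log2 fold change was 0.11 (95% confidence interval -0.55 to 0.77, adjusted *p* = 0.892, edgeR quasi-likelihood test), and it was -0.13 without SCA1-High-FAPs replicate 3.

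*Gli2*, the main activator, fell under the count filter of the test. It had 10, 5, 5 and 10 counts in SCA1-High-FAPs and 12, 7, 15 and 15 counts in SCA1-Low-FAPs, or 3.18 CPM ± 1.24 and 4.58 CPM ± 0.912 (SD, n = 4). The groups overlapped. In the fit without the filter the log2 fold change was 0.54 (95% confidence interval -1.03 to 2.11, adjusted *p* = 0.756, edgeR quasi-likelihood test). *Gli3* counts per *Gli2* count averaged 9.30 ± 1.82 in the High samples and 7.38 ± 1.76 in the Low samples (SD, n = 4).

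*Gli1*, the target most used as a readout of pathway activity, was at the limit of detection. It had 0, 4, 4 and 0 counts in SCA1-High-FAPs replicates 1 to 4, and 6, 0, 0 and 0 counts in SCA1-Low-FAPs. It was thus counted in 3 of 8 libraries. A count of 0 allows up to 3 counts, which corresponds to between 0.792 and 1.63 CPM over the 8 libraries. At this depth a difference in *Gli1* between the states was not detectable, and no fold is given. Its exons share 327 bases with *Arhgap9* and *Gm47200*, which had 1 and 0 counts over all libraries.

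The ligands themselves were almost without counts. *Shh* had no count in any library, *Ihh* had 1 count in all and *Dhh* had 1 count in all. *Hhat*, which attaches the palmitate of the ligands, averaged 4.75 CPM ± 2.33 in the High and 7.38 CPM ± 2.91 in the Low samples (SD, n = 4; log2 fold change 0.64, adjusted *p* = 0.574, edgeR quasi-likelihood test). *Disp1*, which releases ligand from the producing cell, was at 31.7 CPM ± 11.4 and 25.01 CPM ± 6.38 (log2 fold change -0.33, adjusted *p* = 0.571, same test). Of the 9 genes listed for ligands and ligand release these 2 were tested and neither was called, against 7.68% of all tested genes.

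Among 8 other surface proteins of the pathway 5 were tested and 1 was called, against 7.68% of all tested genes. The called gene was *Gpc3*, a glypican known to bind hedgehog ligand and to compete with PTCH1 for it. It was at 59.3, 22.2, 40.1 and 26.0 CPM in SCA1-High-FAPs and at 10.6, 8.71, 14.0 and 6.07 CPM in SCA1-Low-FAPs. The groups did not overlap, as in 14.1% of all tested genes. The log2 fold change was -1.90 (SE 0.36, adjusted *p* = 0.00336, edgeR quasi-likelihood test). The other glypicans of the list, *Gpc4* and *Gpc6*, had log2 fold changes of -0.48 and -0.36 and were not called (adjusted *p* of 0.27 and 0.18). The median log2 fold change of the 5 genes was -0.36, against 0.00 over all tested genes.

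Of 28 cytoplasmic regulators of GLI proteins 26 were tested and none was called, with 2 at an unadjusted *p* under 0.05. Over all tested genes 7.68% were called. The median log2 fold change of the 26 regulators was -0.03. The largest values in size were those of *Grk2*, a kinase that acts on SMO, and *Arrb1*, a beta-arrestin. *Grk2* was at 28.2, 38.9, 22.5 and 24.9 CPM in SCA1-High-FAPs and at 66.2, 49.5, 39.6 and 47.0 CPM in SCA1-Low-FAPs. Its log2 fold change was 0.82 (adjusted *p* = 0.0519, edgeR quasi-likelihood test). The groups did not overlap, as in 14.1% of all tested genes, but the gene lay just outside the threshold. It was past it without SCA1-High-FAPs replicate 2 (adjusted *p* = 0.0296) or without SCA1-Low-FAPs replicate 3 (adjusted *p* = 0.0364), in DESeq2 (adjusted *p* = 0.0368), and with no filter beyond 1 count (adjusted *p* = 0.0316). In 13 of 17 alternatives for this gene it was not called. Its adjusted *p* was highest without SCA1-Low-FAPs replicate 1 (0.185, edgeR quasi-likelihood test). For *Arrb1* the log2 fold change was -0.58 (adjusted *p* = 0.343). *Sufu*, the main restraint on GLI proteins, was at 17.1 CPM ± 7.31 and 17.9 CPM ± 4.22 (SD, n = 4) and is named here after its values were seen.

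The primary cilium is the compartment in which SMO meets the GLI proteins. Of 25 cilium genes 23 were tested and 1 was called, against 7.68% of all tested genes. The called gene was *Cep290*, a protein of the transition zone at the base of the cilium. It was at 41.4, 50.2, 39.2 and 45.5 CPM in SCA1-High-FAPs and at 76.4, 76.2, 65.0 and 69.4 CPM in SCA1-Low-FAPs. The groups did not overlap, as in 14.1% of all tested genes. The log2 fold change was 0.70 (SE 0.19, adjusted *p* = 0.0278, edgeR quasi-likelihood test). This call was lost when any of 6 samples was left out, High replicates 1, 3 and 4 and Low replicates 1, 2 and 4, where the adjusted *p* ran from 0.0520 to 0.0828. Exons of *Cep290* share 881 bases with *4930430F08Rik* on the other strand, which had 237 counts against 1183 for *Cep290*. Whether the counting used strand is not stated, so the values of this gene are uncertain. The intraflagellar transport gene *Ift172* (log2 fold change 0.82, adjusted *p* = 0.301) and the transition zone gene *Tctn1* (log2 fold change -1.05, adjusted *p* = 0.358) were the largest in size among those not called. The median of the list was -0.12.

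Genes known as hedgehog targets in mesenchyme gave calls in both directions. Of 20 such genes 12 were tested and 3 were called, 2 of them higher in SCA1-Low-FAPs, with a list median of 0.31. Over all tested genes 7.68% were called. *Grem1*, a secreted BMP antagonist, was at 63.1, 39.3, 46.8 and 54.3 CPM in SCA1-High-FAPs and at 241, 106, 132 and 296 CPM in SCA1-Low-FAPs. Its groups did not overlap, as in 14.1% of all tested genes. The log2 fold change was 1.93 (SE 0.30, adjusted *p* = 0.00247, edgeR quasi-likelihood test). *Timp3*, an inhibitor of metalloproteinases, lay between 274.3 and 755 CPM in the High samples and between 1275 and 2348 CPM in the Low samples (log2 fold change 1.57, SE 0.29, adjusted *p* = 0.00878, same test). *Foxc1*, a forkhead transcription factor, went the other way, from 48.4 to 82.2 CPM in the High and from 23.7 to 42.2 CPM in the Low samples (log2 fold change -1.09, SE 0.24, adjusted *p* = 0.00965, same test). In *Foxc1*, *Timp3* and *Gpc3*, as in *Gas1*, SCA1-Low-FAPs replicate 3 was the Low sample nearest to the High group. Without that sample the log2 fold changes of *Foxc1*, *Timp3* and *Gpc3* were -1.30, 1.69 and -2.15, and each was still called. All 3 targets are also under the control of other pathways, so their values are not a readout of hedgehog alone.

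**Figure D4:**
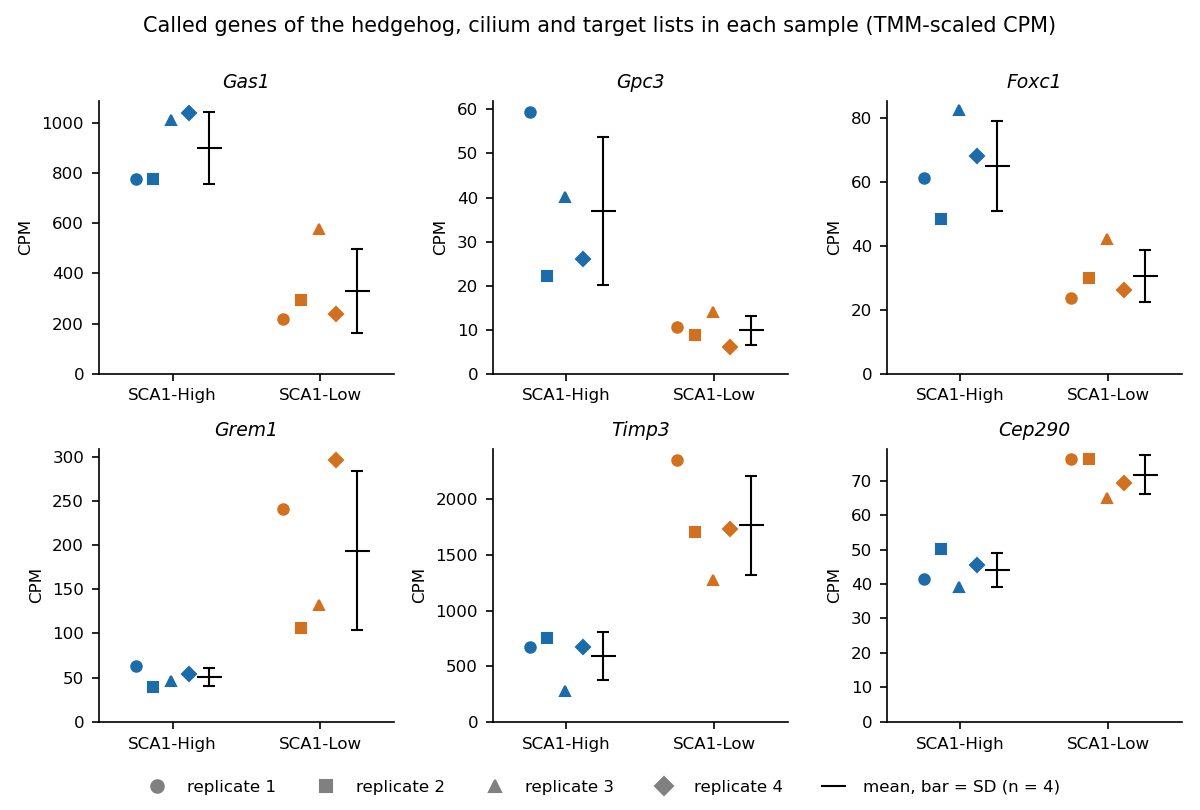
The 6 called genes of the hedgehog, cilium and target lists in each sample (TMM-scaled CPM, linear axes from 0), with SCA1-High-FAPs in blue and SCA1-Low-FAPs in orange, replicate numbers by shape, and mean with SD (n = 4) in black. The groups do not overlap in any of the 6 genes, of which *Gas1*, *Gpc3* and *Foxc1* are higher in SCA1-High-FAPs and *Grem1*, *Timp3* and *Cep290* are lower there. The 6 genes are shown because they were called between these groups, so their separation is a description. Over all tested genes the groups do not overlap in 14.1%.

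Among the targets that were not called, the cyclins *Ccnd1* and *Ccne1* had the largest log2 fold changes in size. *Ccnd1* was at 139, 98.6, 34.7 and 38.1 CPM in SCA1-High-FAPs and at 281, 143, 78.3 and 191 CPM in SCA1-Low-FAPs. Its log2 fold change was 1.16 (adjusted *p* = 0.319, edgeR quasi-likelihood test). For *Ccne1* the log2 fold change was 0.61 (adjusted *p* = 0.266). The ranges of *Ccnd1* overlapped. Both encode proteins that drive entry into S phase, and markers of dividing cells were higher in SCA1-Low-FAPs, as given above. The part of these markers in the cyclin values was not tested. In the paper, SCA1-High-FAPs had the shorter doubling time in culture, while their share of Ki-67 positive cells fell faster at later times. The paper ascribes that fall to earlier confluence. Whether confluence differed between the samples sequenced here was not tested.

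**Figure D5:**
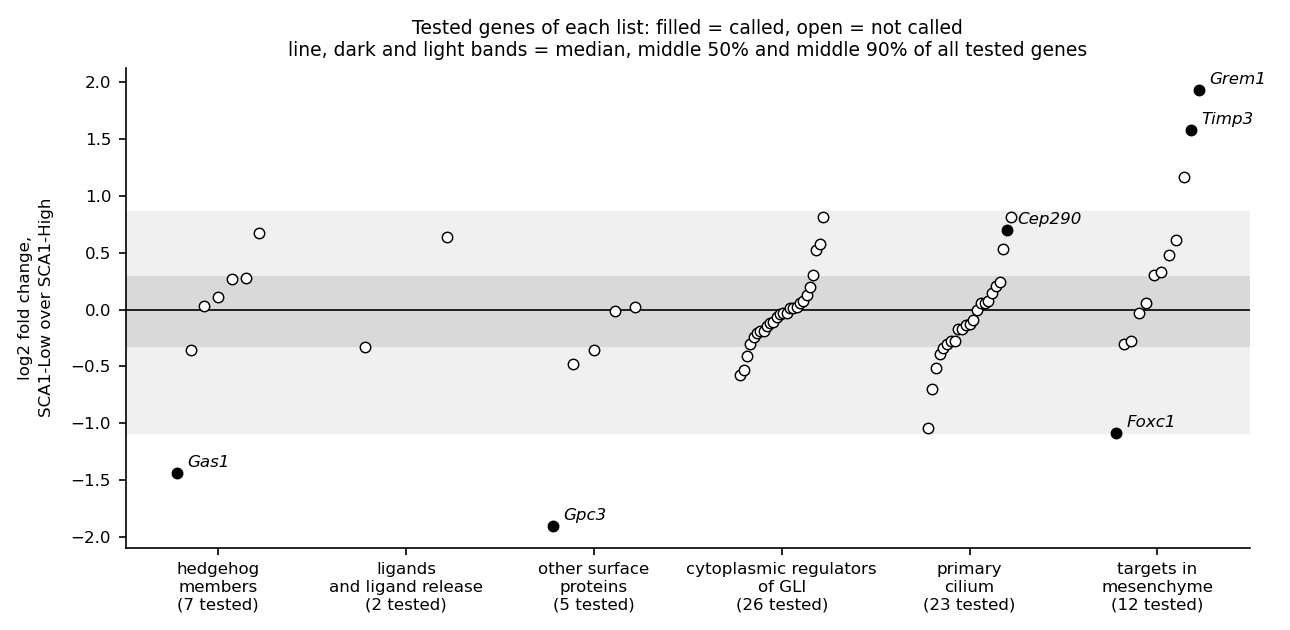
Log2 fold change (Low over High) for each tested gene of the 6 lists, 1 point per gene, filled where called. The line and the dark and light bands give the median and the middle 50% and 90% of all 10181 tested genes. *Gas1* and *Gpc3* lie below the light band and *Ccnd1*, *Timp3* and *Grem1* above it, while the 26 cytoplasmic regulators all lie within it.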

How the data were processed

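Libraries were prepared with the QuantSeq 3′ FWD kit, sequenced, trimmed with bbduk, aligned to mm10 with STAR 2.6.0a and counted per gene with HTSeq, as given in the study's methods and the submitters' processing notes. Per the labels these steps were done before deposit, and the authors deposited raw, unnormalised counts of uniquely mapped reads for each gene in 1 file per sample. The strand setting of the counting is not given in the sources used here. Reads outside any gene (13.3 to 16.4% of unique reads) and ambiguous reads (0.605 to 0.793%) stayed out of totals and tests. Of 31053 gene IDs, 31011 were matched to GENCODE M21 for symbols and coordinates.

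From these counts, genes were filtered (filterByExpr, minimum count 10, minimum total 15), scaled by TMM factors and tested in edgeR 4.0.16 by its quasi-likelihood test with the robust option (R 4.3.3), with Benjamini-Hochberg adjustment over all 10181 genes tested. A fold change is SCA1-Low-FAPs over SCA1-High-FAPs. Total counts per sample were 1880561 to 3985656, and 3 counts, the most that a 0 allows, reflect counting error alone. Intervals are at 95%. The steps were tested on simulated data with the same dispersion for all genes. There the main test called 99 of 100 genes changed 4-fold and 45 of 100 changed 2-fold, with 6 false calls among 150. A gene that was not called can therefore still differ 2-fold. The alternatives were DESeq2 1.42.0, RLE factors, library totals alone, 2 other filters, a fit without the robust option, the replicate number as a block, each sample left out, a stricter adjusted *p* of 0.01 and no limit on the fold change. Promoter sequences are from RefSeq (GRCm38.p6). Figures were made with Python 3.11.15 and matplotlib 3.10.9.

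The 9 genes and all lists were chosen with earlier results of these data known. Named outside the 9 are the called genes of each list, the ligands, the 2 genes of each list with the largest log2 fold changes among those not called, and the 3 genes nearest to each called member. *Ift25* was not matched by symbol. Both states came from 4 mice, but no source ties equal replicate numbers to a mouse, so samples were not paired.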

Additional observations from a re-analysis of the deposited data

Results flagged for a closer look

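In 54 groups of 4 samples, from the 27 named genes with counts above the floor, 4 had a sample farther from the others than Dixon's 95% criterion allows, and chance flags about 1 in 20 groups. *Smo* in SCA1-High-FAPs replicate 4 was at 79.6 CPM, with the next sample of the group at 22.6 CPM. *Hhip* in SCA1-High-FAPs replicate 1 was at 24.5 CPM, with the next at 4.52 CPM. *Ift172* in SCA1-High-FAPs replicate 4 was at 4.77 CPM, below the other samples at 7.23 CPM or more. *Gli1* in SCA1-Low-FAPs replicate 1 was at 2.90 CPM, from 6 counts, with 0 in the other samples of the group. With all other samples at 0 the criterion is met whatever the count, so this flag carries no information. Over all 10181 tested genes a High sample stood highest by this criterion in 3.53% of genes and lowest in 1.81%. Replicate 4 was that highest sample in 0.481% of genes and replicate 1 in 0.933%.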

How the results depend on the processing

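The call of *Gas1* was kept in 16 of 18 alternatives, with log2 fold changes from -1.86 to -1.28. It was lost without SCA1-High-FAPs replicate 3 and at the stricter adjusted *p* of 0.01, which each left 0 members called. Leaving out samples thus gave 0 to 1 members called. Removing the limit on the fold change could not lose the *Gas1* call, and the replicate block assumes a pairing that no source gives. Over all genes the count was 782. It was 417 without SCA1-Low-FAPs replicate 1 and 410 without SCA1-Low-FAPs replicate 4, 410 to 1017 over all samples left out, and 307 at the stricter threshold. DESeq2 called 1065 genes and the fit with no filter beyond 1 count 1052. The other pathway genes had 2 calls, *Gpc3* and *Grk2*, in DESeq2 and with no filter beyond 1 count, and 1 to 2 over the samples left out. The cilium list had 0 calls at the stricter threshold and 0 to 1 over the samples left out. The targets gave 3 to 4 calls under every alternative. The cause of these changes was not tested.

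The sign of *Gli3* turned to -0.13 without SCA1-High-FAPs replicate 3, its left-out values running from -0.13 to 0.34. *Smo* ran from -0.62 to 0.66, *Hhip* from -0.0531 to 1.76 and *Cdon* from -0.0614 to 0.16 over the samples left out, and none was called there. The scalings moved the median log2 fold change of all genes by less than 0.1. *Gli2* and *Gli1* had few counts, so depth limits both.

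Equal replicate numbers did not mark samples that deviate together. The mean correlation of deviations was -0.0184 for the 4 pairs of equal number, against 0.0051 for the 12 others. Of the 4 High samples, 0 correlated best with the Low sample of their own number. High replicates 1, 2, 3 and 4 correlated best with Low replicates 2, 1, 4 and 3 (0.164, 0.131, 0.255 and 0.137). Whether these samples share a mouse was not tested, and the main test treats all 8 samples as independent. With the replicate block the log2 fold change of *Gas1* was -1.54 in edgeR (adjusted *p* = 0.000871) and *Smo* turned to 0.0372 in edgeR and 0.0786 in DESeq2. The block left 697 genes called in edgeR and 838 in DESeq2, and 0 cilium genes in both. Under it *Ccnd1* passed the threshold, with an adjusted *p* of 0.0107 in edgeR and 0.000241 in DESeq2.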
